A study of Mus musculus with 8 samples.

Results

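The genes described are 10 of the 15096 distinct gene symbols placed on the arrays: the FoxO transcription factors Foxo1 and Foxo3, and 8 genes known as FoxO targets or as genes of quiescent lymphocytes, Klf2, Klf4, Btg1, Btg2, Ccng2, Txnip, Pdcd4 and Irs2. They were chosen by name and not by their values, though with earlier results of these data known. They occupied 12 spots, because Foxo3 had 3 probes and each other gene had 1; Foxo3 values are from its brightest probe unless another is named. All 10 were brighter than the 95th percentile of the empty wells. So were all measured markers of B cells, myeloid, erythroid and mast cells and fibroblasts, so passing this floor does not by itself show expression.

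The mouse T cell line CTL-EN was used, expressing the beta common chain of the GM-CSF receptor either with glycine in place of a serine (Ser585Gly) or as the wild type. All cells were first deprived of factor for 12 h in RPMI medium with 0.5% CS. The 4 RNA samples were Ser585Gly after 12 h in human GM-CSF at 50 ng/mL (12 h), Ser585Gly after deprivation only (0 h), wild type at 12 h, and wild type at 0 h. They were hybridised in pairs to 8 two-colour spotted oligonucleotide arrays, 2 for each of the 4 neighbouring pairs. In replicate 1 the Ser585Gly or the 12 h RNA was in Cy5, and in replicate 2 the dyes were exchanged. Separate cultures are not named in the labels, so p-values measure the spread between hybridisations, which may be technical. Cells cultured for the same 12 h without the cytokine were not among these RNAs. Its effect and that of the extra hours therefore cannot be told apart, and neither can less RNA per cell and fewer cells with the RNA. The labels do not say whether each population was a clone or a pool, and the introduced chain was not measured.

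FoxO proteins are forkhead transcription factors that switch on genes of cell cycle exit, stress resistance and cell death. When growth factors activate PI3K and Akt, Akt phosphorylates FoxO proteins, which then bind 14-3-3 proteins and leave the nucleus, and their targets fall silent. In resting T cells FoxO1 maintains a programme that includes Klf2, and the serine that is changed in Ser585Gly is known as a phosphorylation site of the receptor chain to which 14-3-3 proteins bind. The arrays measured RNA only, so the phosphorylation and location of FoxO proteins were not measured.

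The arrays had median foreground intensities of 631 to 946 in Cy5 and 795 to 1105 in Cy3, which were 39.2 to 330 times and 6.38 to 16 times the local background. Dye-swap arrays turned to one direction correlated across probes at 0.509 for 12 h against 0 h in Ser585Gly, 0.515 in wild type, 0.219 for the mutation at 12 h and 0.124 at 0 h. The spots carry no names, and the names used here rest on a 24-pin print order recovered from the data. In it, 2 probes of 1 gene correlated in their 12 h ratio at 0.441 in Ser585Gly and 0.401 in wild type over 1024 genes, against −0.104 and −0.02 over 983 genes in the deposited order. Where the brighter probe changed at least 2-fold, the other had the same sign in 66.7% of 15 pairs in Ser585Gly and 88.2% of 17 in wild type. In the deposited order these shares were 37.5% of 16 and 33.3% of 18. T cell markers were bright, with 9 of 12 measured and a median brightness percentile of 95.5. Markers of other cells were dimmer, with medians of 55.7 for erythroid, 47.8 for fibroblast, 40.9 for myeloid, 39.3 for mast cell and 28.4 for B cell genes. Of the T cell markers, Cd3e and Cd3g passed as lower and Lat as higher at 12 h in both populations; of 3 erythroid markers, Hba-a1 passed as lower and Gata1 as higher. Of 7 myeloid markers, Fcgr3 passed as higher in Ser585Gly at both times. The part of these shifts in the results below was not tested.

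Some of these promoters are referred to below, and their letters are given so that the 4 genes with the largest 12 h changes can be set beside Btg1, a relative of Btg2 that did not pass. Each stretch before a start is from RefSeq on the GRCm38.p6 build, printed on the gene's strand and 250 bases long. Capitals mark matches, on either strand, to 1 of 4 FoxO-type letter strings, which were GTAAACA as the core, GTAAATA and ATAAACA as close variants, and CAAAACA as a looser one. The letters of Txnip (chr3:96557707-96557956, plus strand), Ccng2 (chr5:93267323-93267572, plus strand), Btg2 (chr1:134079156-134079405, minus strand) and Btg1 (chr10:96616751-96617000, plus strand) follow. For Pdcd4, whose matches lie after its 2 annotated starts, 27 bases are shown around each (chr19:53892254-53892280 and chr19:53903355-53903381, plus strand).
Txnip: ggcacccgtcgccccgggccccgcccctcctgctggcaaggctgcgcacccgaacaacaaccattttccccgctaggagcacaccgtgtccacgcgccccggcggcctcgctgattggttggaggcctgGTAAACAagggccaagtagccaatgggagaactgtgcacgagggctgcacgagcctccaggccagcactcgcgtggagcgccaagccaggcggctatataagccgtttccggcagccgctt
Ccng2: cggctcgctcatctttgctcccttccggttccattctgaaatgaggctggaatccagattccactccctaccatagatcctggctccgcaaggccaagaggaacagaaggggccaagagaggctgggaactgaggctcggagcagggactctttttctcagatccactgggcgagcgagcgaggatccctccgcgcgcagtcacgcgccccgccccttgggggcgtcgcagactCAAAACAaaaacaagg
Btg2: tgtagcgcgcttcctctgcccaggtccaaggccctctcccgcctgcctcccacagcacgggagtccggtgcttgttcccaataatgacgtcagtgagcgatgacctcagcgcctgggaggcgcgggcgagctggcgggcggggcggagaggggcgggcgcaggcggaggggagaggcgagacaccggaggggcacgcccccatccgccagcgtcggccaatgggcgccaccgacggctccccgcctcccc
Btg1: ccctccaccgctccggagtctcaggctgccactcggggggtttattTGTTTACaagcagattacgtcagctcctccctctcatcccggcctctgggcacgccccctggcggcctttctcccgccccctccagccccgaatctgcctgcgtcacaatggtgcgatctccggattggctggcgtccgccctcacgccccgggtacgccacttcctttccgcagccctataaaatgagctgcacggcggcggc
Pdcd4, first start: ctggagaagcTGTTTATgaacgctgcc
Pdcd4, second start: ctgggtagaaCAAAACAaaaacaaaca

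The search covered 250 bases before to 50 after each start, which gave 11 windows for the 10 genes. Txnip held GTAAACA with its first base at −121 and Btg1 held it on the opposite strand at −204; 3.65% of all 32851 windows held that string. Ccng2 held CAAAACA at −16 (6.28% of windows). Pdcd4 held ATAAACA on the opposite strand 34 bases after the first start (4.6% of windows) and CAAAACA 15 bases after the second. Klf4 held ATAAACA at −167 and Irs2 CAAAACA at −37, both on the opposite strand, and both also held the E-box CACGTG (7.15% of windows), at −182 and −44. GTAAATA, which 3.04% of windows held, was in none of the 11. Foxo1, Foxo3, Klf2 and Btg2 held none of these strings in this window. In all, 7 of the 11 windows held a FoxO-type string, against 15.94% of all windows, and no matches overlapped; several of these genes are known FoxO targets, and a match is not a site.

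The first question was how the 10 genes differed after 12 h with GM-CSF. In both populations Pdcd4, Btg2 and Txnip fell, and in Ser585Gly Ccng2 and Foxo3 fell as well. No gene of the 10 rose in either population. Lower calls thus numbered 5 of 10 in Ser585Gly and 3 of 10 in wild type, where a call is a limma adjusted p under 0.05 over 21779 probes. Over all probes, 4.72% were called lower in Ser585Gly and 4.03% in wild type. The fitted log2 ratio was negative for 9 of the 10 in Ser585Gly and for all 10 in wild type. Its median over the 10 genes was −0.40 in both populations, against 0.01 and −0.01 over all probes. The 2 sets of ratios come from different arrays, but the joint fit lets each array inform every comparison.

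**Figure D1:**
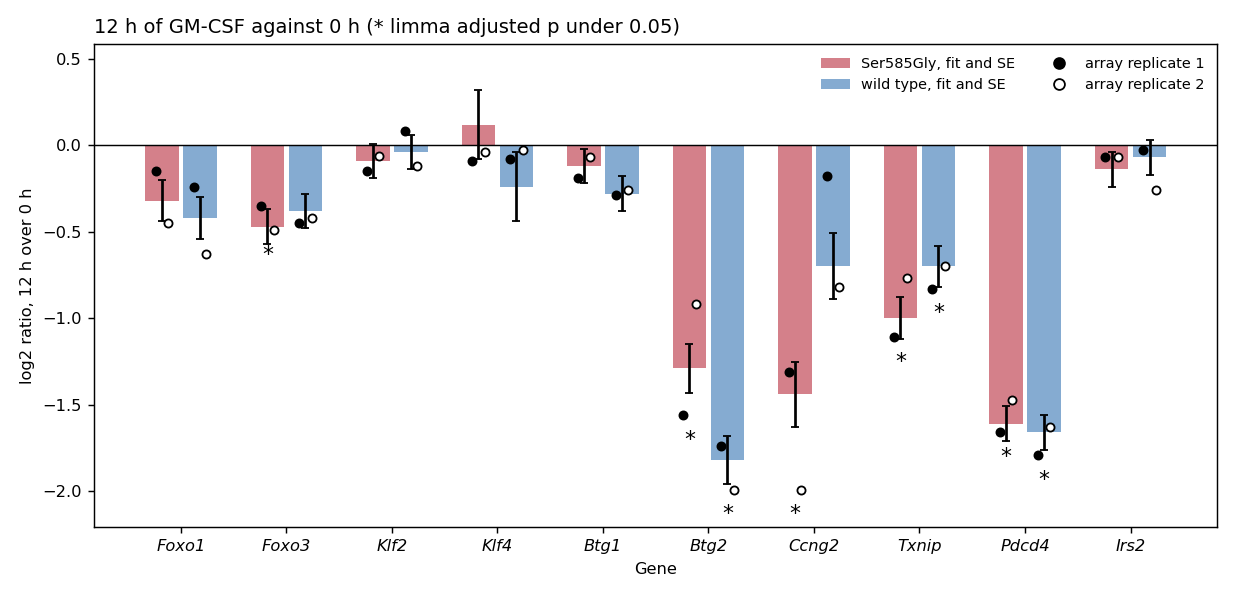
Log2 ratio of 12 h over 0 h for each gene (bars, limma fit with SE over 8 arrays; points, the 2 direct arrays) in Ser585Gly (red) and wild type (blue), with asterisks at an adjusted p under 0.05. Pdcd4 and Btg2 have the lowest values in wild type, Pdcd4 and Ccng2 in Ser585Gly, and Klf2, Klf4, Btg1 and Irs2 lie near 0.

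Pdcd4 inhibits translation by binding the helicase eIF4A, and growth factor signalling through S6 kinase leads to its degradation. Its 12 h ratio was −1.66 and −1.47 on the 2 arrays of Ser585Gly and −1.79 and −1.63 on those of wild type. All 4 direct arrays thus showed it lower at 12 h by similar amounts. The fit gave −1.61 ± 0.10 in Ser585Gly (SE, 8 arrays; 3.06-fold lower, adjusted p = 0.000148, limma) and −1.66 ± 0.10 in wild type (3.15-fold lower, adjusted p = 0.00012). Its channel intensity, on a log2 scale, was 8.80 to 9.75 in Ser585Gly at 12 h and 10.46 to 12.28 at 0 h over 4 hybridisations each. In wild type it was 8.89 to 9.89 at 12 h and 10.58 to 12.43 at 0 h. Intensity also differed between arrays. Wild type at 0 h stood at 12.43 and 11.99 on the arrays against Ser585Gly, and at 10.68 and 10.58 on those against 12 h. The difference between the populations' responses was 0.04 ± 0.11 (interaction, adjusted p = 0.934), the smallest in size of the 10 genes.

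Btg2 is an antiproliferative adaptor that recruits the CCR4-NOT deadenylase to mRNA, and it is also known as a p53 target. Its 12 h ratio was −1.56 and −0.92 in Ser585Gly and −1.74 and −1.99 in wild type. Both wild-type arrays lay below both Ser585Gly arrays. The fit gave −1.29 ± 0.14 in Ser585Gly (2.45-fold lower, adjusted p = 0.00128) and −1.82 ± 0.14 in wild type (3.52-fold lower, adjusted p = 0.000286). Channel intensity was 9.38 to 10.46 in Ser585Gly at 12 h and 10.30 to 11.88 at 0 h, which overlap. In wild type it was 9.91 to 10.48 at 12 h and 10.84 to 12.15 at 0 h. The smaller fall in Ser585Gly was 0.52 ± 0.16 in the interaction, which did not pass after adjustment (adjusted p = 0.563, limma). The promoter window of Btg2 held none of the searched strings. Whether such strings relate to the 12 h changes was not tested for any of the 10 genes.

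Btg1, its close relative with the same role in quiescent lymphocytes, did not pass. Its 12 h ratio was −0.19 and −0.07 in Ser585Gly and −0.29 and −0.26 in wild type, and the fit gave −0.12 ± 0.10 (adjusted p = 0.512, limma) and −0.28 ± 0.10 (adjusted p = 0.121). All 4 arrays were slightly negative. Its window holds the same string as that of Txnip.

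Txnip binds thioredoxin and restrains glucose uptake, and its RNA is known to follow glucose as well as FoxO activity. Its 12 h ratio was −1.11 and −0.77 in Ser585Gly and −0.83 and −0.70 in wild type. It was lower at 12 h on all 4 direct arrays. The fit gave −1.0 ± 0.12 in Ser585Gly (2.0-fold lower, adjusted p = 0.00236, limma) and −0.70 ± 0.12 in wild type (1.62-fold lower, adjusted p = 0.0112). Channel intensity was 10.62 to 12.56 in Ser585Gly at 12 h and 11.39 to 13.67 at 0 h, and in wild type 11.72 to 13.21 at 12 h and 12.73 to 13.36 at 0 h. These ranges overlap, so the call rests on the ratios within arrays. It was lost in Ser585Gly without replicate 1 of its own arrays (adjusted p = 0.06) and in wild type without either of its own arrays (adjusted p = 0.112 and 0.121).

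Ccng2 encodes cyclin G2, an unconventional cyclin that is high in arrested cells and is a known FoxO target. Its 12 h ratio was −1.31 and −1.99 in Ser585Gly and −0.18 and −0.82 in wild type. The Ser585Gly arrays were both lower than the wild-type arrays, and within each population the 2 arrays lay apart by similar amounts. The fit gave −1.44 ± 0.19 in Ser585Gly (2.72-fold lower, adjusted p = 0.003) and −0.70 ± 0.19 in wild type, which did not pass (adjusted p = 0.0529, limma). The Ser585Gly call was lost without replicate 1 of its own arrays (adjusted p = 0.059). Channel intensity was 9.81 to 11 in Ser585Gly at 12 h and 11.12 to 13.87 at 0 h. In wild type it was 9.66 to 10.45 at 12 h and 9.84 to 13.08 at 0 h, with overlap. That spread of 3.24 for 1 RNA over 4 hybridisations was wider than for most probes (97.6th percentile). The interaction was −0.74 ± 0.22 and did not pass after adjustment (adjusted p = 0.548, limma).

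Foxo3 and Foxo1 are the factors themselves. Foxo3 had 12 h ratios of −0.35 and −0.49 in Ser585Gly and −0.45 and −0.42 in wild type on its brightest probe. All 4 were negative and close together. The fit gave −0.47 ± 0.10 in Ser585Gly (1.39-fold lower, adjusted p = 0.0234, limma) and −0.38 ± 0.10 in wild type (adjusted p = 0.053), so the 2 populations lay on either side of the threshold with an interaction of −0.09 ± 0.12 (adjusted p = 0.859). The second probe gave −0.49 ± 0.13 in Ser585Gly (adjusted p = 0.0464) and −0.22 ± 0.13 in wild type (adjusted p = 0.355). The third gave −0.22 ± 0.10 (adjusted p = 0.219) and −0.14 ± 0.10 (adjusted p = 0.47). The 3 probes shared the negative sign and differed in size. The Ser585Gly call on the brightest probe was lost without either array of that population (adjusted p = 0.156 and 0.105), without either wild-type time array (0.054 and 0.058) and without replicate 2 of the mutation at 12 h (0.0575).

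Foxo1 had 12 h ratios of −0.15 and −0.45 in Ser585Gly and −0.24 and −0.63 in wild type. All 4 were negative, and the fits of −0.32 ± 0.12 (adjusted p = 0.147) and −0.42 ± 0.12 (adjusted p = 0.0709, limma) did not pass.

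Klf2 and Klf4 are Kruppel-like factors; Klf2 holds T cells in quiescence and directs their homing receptors. Klf2 had 12 h ratios of −0.15 and −0.06 in Ser585Gly and 0.08 and −0.12 in wild type. These lie around 0, and the fits were −0.09 ± 0.10 (adjusted p = 0.669) and −0.04 ± 0.10 (adjusted p = 0.848, limma). Klf4 had −0.09 and −0.04 in Ser585Gly and −0.08 and −0.03 in wild type. Its fits were 0.12 ± 0.20 (adjusted p = 0.794) and −0.24 ± 0.20 (adjusted p = 0.543), and the first has the opposite sign to both of its direct arrays. Without replicate 1 of the mutation at 0 h, an array on which Klf4 stood at −1.21, the fits were −0.03 and −0.09.

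Irs2 is the insulin receptor substrate that FoxO factors are known to induce in liver. It had 12 h ratios of −0.07 on both arrays of Ser585Gly and −0.03 and −0.26 in wild type. The fits were −0.14 ± 0.10 (adjusted p = 0.472) and −0.07 ± 0.10 (adjusted p = 0.733, limma). It was the dimmest of the 10 by mean intensity, at brightness percentile 14.3. That is below the lowest B cell and mast cell markers (24.9 and 15.5) and above the lowest myeloid and erythroid ones (12.0 and 8.5).

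**Figure D2:**
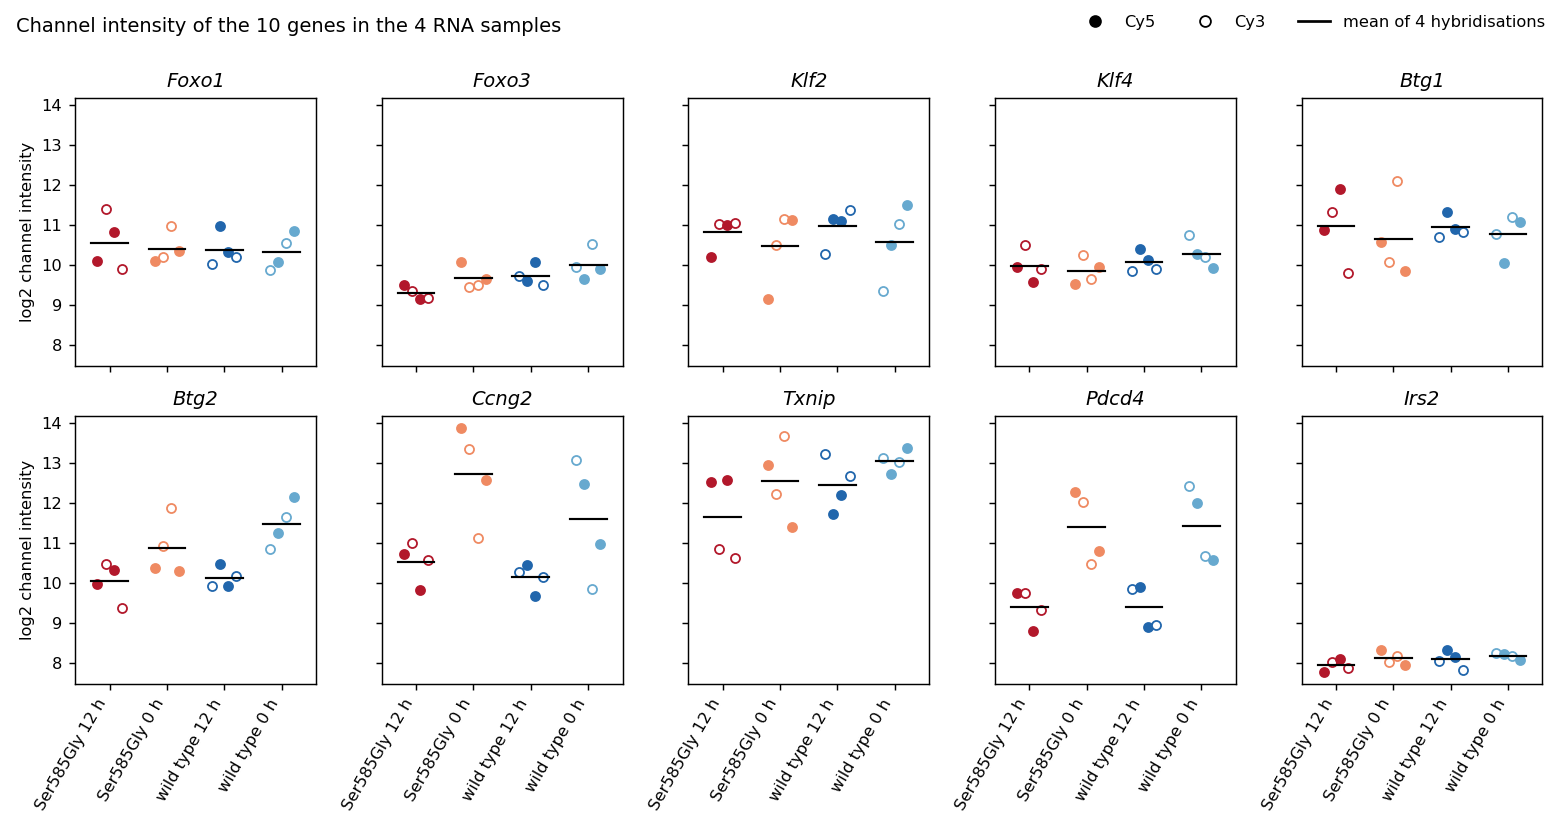
Log2 channel intensity (vertical axis, after normalisation between arrays) of each gene in the 4 RNA samples, with 4 hybridisations per RNA, Cy5 filled and Cy3 open, and the mean as a line. Pdcd4 has lower means at 12 h than at 0 h in both populations, and Ccng2 has its highest values in Ser585Gly at 0 h, up to 13.87.

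The next question was how Ser585Gly cells differed from wild-type cells before GM-CSF was given. Ccng2 was the only 1 of the 10 that passed, and it was higher in Ser585Gly. Its ratio of Ser585Gly over wild type at 0 h was 0.79 and 0.86 on the 2 direct arrays, both above 0. The fit gave 1.03 ± 0.19 (2.04-fold higher, adjusted p = 0.0252, limma), against 2.07% of all probes called higher. The fitted value lies above both direct arrays, and the direct arrays alone gave 0.82 (adjusted p = 0.0723). The sum of the ratios round the square, which would be 0 without error, was −0.82 for Ccng2, larger than for most probes (96.5th percentile; median size 0.20). The call was lost without replicate 2 of this comparison (adjusted p = 0.118), replicate 1 of the mutation at 12 h (0.0625), replicate 2 of time in wild type (0.0767) or replicate 1 of time in Ser585Gly (0.0757).

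Btg2 and Txnip were negative at 0 h and did not pass. Btg2 had −0.48 and −0.34 on the arrays and −0.46 ± 0.14 in the fit (adjusted p = 0.0998), and Txnip −0.18 and −0.50 with −0.41 ± 0.12 (adjusted p = 0.106, limma). Klf4 had −1.21 and −0.04, with a fit of −0.44 ± 0.20 (adjusted p = 0.242, limma) that was 0.02 without the first of these arrays. Foxo1 had 0.23 and 0.13 with a fit of 0.17 ± 0.12. The other 5 genes, Foxo3, Klf2, Btg1, Pdcd4 and Irs2, had fits of −0.13 to −0.06. The other Foxo3 probes gave −0.10 ± 0.13 and 0.21 ± 0.10 at 0 h, so its probes differed in sign.

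After 12 h with GM-CSF, Txnip was the only 1 of the 10 that passed between the populations, and it was lower in Ser585Gly. Its ratio was −0.69 and −0.87 on the 2 direct arrays. The fit gave −0.71 ± 0.12 (1.64-fold lower, adjusted p = 0.0288, limma), against 0.799% of all probes called lower. Both direct arrays lay below both of those at 0 h, while the interaction of −0.30 ± 0.14 did not pass (adjusted p = 0.74). The call was lost without replicate 1 (adjusted p = 0.229) or 2 (0.349) of this comparison, replicate 2 of the mutation at 0 h (0.0791), either array of time in wild type (0.0541 and 0.085) or replicate 1 of time in Ser585Gly (0.0973). Channel intensities overlapped, at 10.62 to 12.56 in Ser585Gly and 11.72 to 13.21 in wild type.

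Ccng2 at 12 h had ratios of 0.45 and 0.54 and a fit of 0.29 ± 0.19 (adjusted p = 0.592), and Foxo1 0.08 and 0.41 with 0.26 ± 0.12 (adjusted p = 0.416, limma). Pdcd4 had −0.11 and −0.14 with −0.07 ± 0.10, and Btg2 0.05 and −0.02 with 0.06 ± 0.14. These last ratios were small beside the 12 h falls of the same genes. The other 5 genes had fits of −0.20 to 0.08. Foxo3, at −0.18 ± 0.10 on its brightest probe, had −0.37 ± 0.13 and 0.12 ± 0.10 on its other probes, again with both signs, and none passed.

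**Figure D3:**
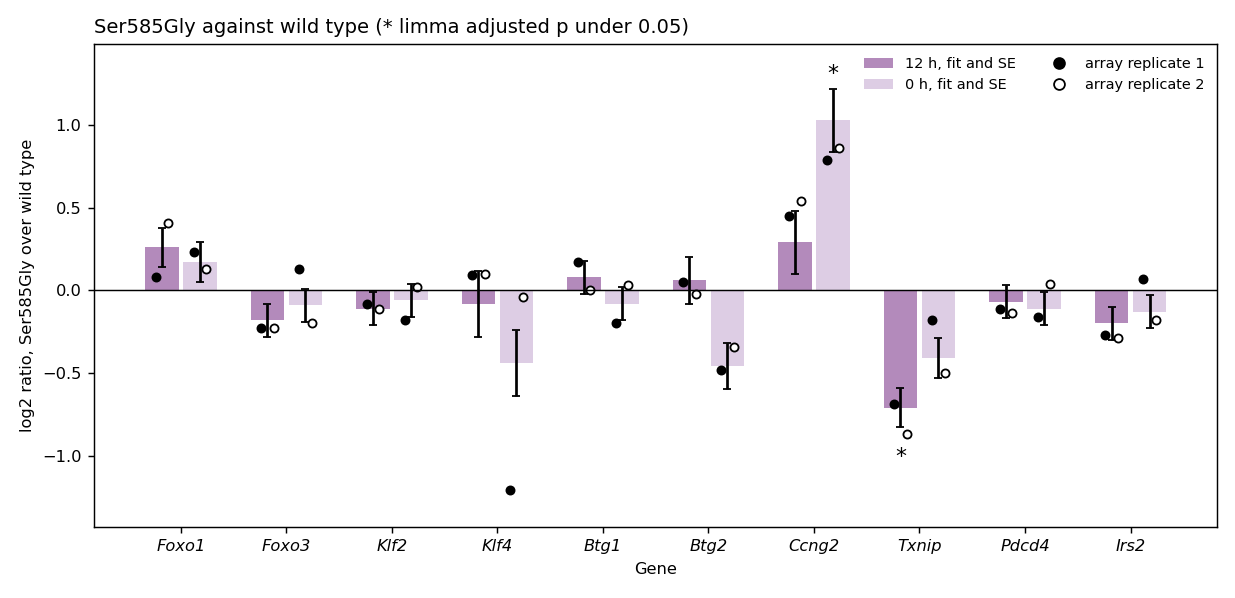
Log2 ratio of Ser585Gly over wild type for each gene at 12 h (dark) and 0 h (pale), as limma fits with SE over 8 arrays and the 2 direct arrays as points; asterisks mark an adjusted p under 0.05. Ccng2 at 0 h lies above 0 and Txnip at 12 h below it, and the 2 Klf4 arrays at 0 h stand apart at −1.21 and −0.04.

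None of the 10 genes passed the test of whether the response to GM-CSF differed between the populations, in which 0.0551% of all probes, or 12, were called. The largest interactions in size were −0.74 for Ccng2 and 0.52 for Btg2, of opposite sign. The interactions of the other 8 genes ran from −0.30 for Txnip to 0.36 for Klf4.

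The fitted levels put the 4 RNA samples in an order for each gene. For Pdcd4, relative to wild type at 0 h, the levels were −1.73 in Ser585Gly at 12 h, −0.11 in Ser585Gly at 0 h and −1.66 in wild type at 12 h, and neighbours of the same time did not differ beyond their error. The levels of Btg2 were −1.75 in Ser585Gly at 12 h, −0.46 in Ser585Gly at 0 h and −1.82 in wild type at 12 h, and they too did not differ between populations at the same time beyond the threshold. Txnip ran from −1.41 in Ser585Gly at 12 h through −0.70 in wild type at 12 h and −0.41 in Ser585Gly at 0 h to wild type at 0 h. Ccng2 alone of these 4 genes had its highest level in Ser585Gly at 0 h, at 1.03, with wild type at 0 h next, then −0.41 in Ser585Gly at 12 h and −0.70 in wild type at 12 h. Of neighbours in these orders, the lowest pair of Txnip and the highest pair of Ccng2 differed past the threshold, the pair at the other end of each order did not, and the middle pairs were not compared on an array. The levels of the other 6 genes all lay between −0.56 and 0.17.

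Each called gene has another gene whose 8 turned ratios lie closest to its own. By root mean square distance these were Itm2c for Foxo3 (0.09), Tfdp2 for Txnip (0.24), Plod1 for Pdcd4 (0.25), Sp100 for Btg2 (0.29) and Sectm1a for Ccng2 (0.35).

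Other known FoxO targets give the setting. No gene of these lists or of those below passed the interaction of mutation and time. A pass in 1 population alone is therefore not a difference between the 2 responses. For these lists and those below, the share of all probes called higher at 12 h than at 0 h was not counted. Nor was the share called lower in Ser585Gly than in wild type at 0 h, or the share called higher at 12 h. Of 11 measured genes of cell cycle exit, 7 fell in each population and none rose. Cdkn1b, a CDK inhibitor, fell, at −1.60 ± 0.09 in Ser585Gly and −1.29 ± 0.09 in wild type (log2 ratio and SE, 8 arrays). Bcl6, a transcriptional repressor, stood at −1.39 ± 0.20 in Ser585Gly and −1.13 ± 0.20 in wild type, and Mxi1, an antagonist of Myc, at −1.0 ± 0.25 and −1.02 ± 0.25. Cdkn2d, another CDK inhibitor, was at −0.76 ± 0.09 in Ser585Gly and −0.41 ± 0.09 in wild type, and Rbl2, a pocket protein of the retinoblastoma family, at −0.69 ± 0.12 and −1.09 ± 0.12, all past the threshold. The list's median was −0.69 in Ser585Gly and −0.49 in wild type. Between the populations at 0 h, 2 of the 11 were higher in Ser585Gly and none lower, against 2.07% of all probes called higher. These were Cdkn2d, by 0.51 ± 0.09 (adjusted p = 0.0254), and Cdkn1b, by 0.46 ± 0.09 (adjusted p = 0.0375, limma). None of the 11 passed between the populations at 12 h.

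Of 18 measured genes of stress, autophagy and metabolism, 7 fell and 2 rose in Ser585Gly, and 9 fell and 1 rose in wild type. Trp53inp1, a stress protein of autophagy, fell, at −2.09 ± 0.23 in Ser585Gly and −2.20 ± 0.23 in wild type. Bnip3, a mitophagy receptor also known as a hypoxia gene, was at −1.86 ± 0.23 and −2.28 ± 0.23, and Klhl24 at −1.71 ± 0.11 and −1.69 ± 0.11 on the brightest of its 3 probes. Of 6 cell death targets, 2 fell in each population, and 1 rose in wild type. Bmf, a BH3-only protein, fell, at −0.76 ± 0.13 in Ser585Gly and −1.06 ± 0.13 in wild type. The death ligand gene Fasl was at 0.11 ± 0.09 in Ser585Gly, which did not pass, and rose by 0.56 ± 0.09 in wild type. Its interaction of −0.45 ± 0.11 did not pass (adjusted p = 0.411, limma). At 0 h Fasl was higher in Ser585Gly than in wild type, by 0.52 ± 0.09 (adjusted p = 0.0217, limma), and no other of the 6 passed there.

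Of 13 measured T cell quiescence and homing genes, 1 fell and 1 rose in Ser585Gly, and 3 fell and 1 rose in wild type. Il7r, the interleukin-7 receptor chain and a known Foxo1 target, rose by 0.51 ± 0.11 in Ser585Gly and 0.61 ± 0.11 in wild type, on a dim probe at brightness percentile 5.5. Klf3, a Kruppel-like repressor, fell, at −0.45 ± 0.09 in Ser585Gly and −0.64 ± 0.09 in wild type. Ctla4, an inhibitory receptor, was at −0.04 ± 0.11 in Ser585Gly, where it did not pass, and at −0.70 ± 0.11 in wild type, on a probe at percentile 9.1. The direct arrays of Ctla4 lay far apart, at −0.49 and 0.47 in Ser585Gly and −1.30 and −0.16 in wild type. Itgb7, a homing integrin, was at −0.32 ± 0.10 in Ser585Gly, which did not pass, and at −0.41 ± 0.10 in wild type. Between the populations, 3 of these 13 were higher in Ser585Gly and 3 lower at 0 h, and 2 were higher and 1 lower at 12 h. Over all probes, 2.07% were called higher at 0 h and 0.799% lower at 12 h. Ccr7, a homing receptor, was higher by 1.12 ± 0.10 at 0 h (adjusted p = 0.00152, limma) and by 0.85 ± 0.10 at 12 h (adjusted p = 0.0062). Foxp1, a transcription factor of naive T cells, had −1.05 ± 0.11 at 0 h (adjusted p = 0.00343, limma) and −1.10 ± 0.11 at 12 h (adjusted p = 0.00307). Itgb7 was higher by 0.67 ± 0.10 at 0 h and 0.76 ± 0.10 at 12 h.

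**Figure D4:**
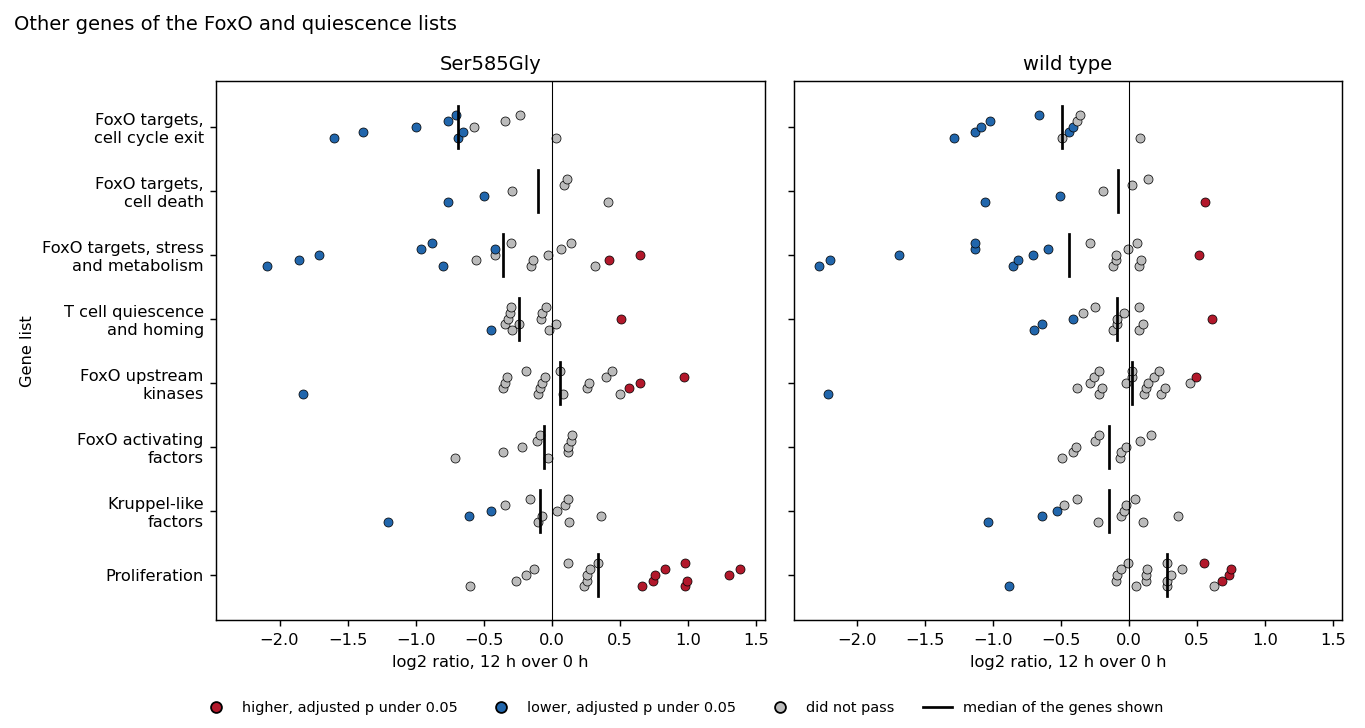
Log2 ratio of 12 h over 0 h in Ser585Gly (left) and wild type (right) for the genes of 8 lists other than the 10 genes; each point is a gene, colour marks an adjusted p under 0.05, vertical spread only separates points, and lines are medians. Genes of cell cycle exit lie mostly below 0 and proliferation genes mostly above it.

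Relatives and partners of the 10 genes moved in part. Of 14 Kruppel-like factors, 3 fell in each population, Klf3, Klf6 and Klf13, with Klf6 at −1.20 ± 0.10 in Ser585Gly and −1.04 ± 0.10 in wild type. Klf2 and Klf4 were not among them. Between the populations at 0 h, 1 of the 14 was higher in Ser585Gly and 1 lower. In the BTG and TOB family of 6, 1 rose and 1 fell in Ser585Gly, and 1 rose and 2 fell in wild type. Btg2 itself was the 1 that fell in Ser585Gly, and Btg2 and Tob1 (−0.44 ± 0.10) were the 2 in wild type. Btg3 rose, by 0.41 ± 0.09 in Ser585Gly and 0.37 ± 0.09 in wild type, opposite to Btg2. Of 10 genes of the alpha-arrestin and thioredoxin list, 2 rose and 1 fell in Ser585Gly, and 1 rose and 1 fell in wild type. The 1 that fell was Txnip itself in both populations. Txnrd1, which reduces thioredoxin, rose by 0.85 ± 0.10 and 0.64 ± 0.10, opposite to Txnip. Of 5 unconventional cyclins, Ccni fell with Ccng2 in Ser585Gly, by 0.61 ± 0.09, and none passed in wild type, where Ccni was at −0.30 ± 0.09. Ccni, like Ccng2, was higher in Ser585Gly than in wild type at 0 h, by 0.44 ± 0.09 (adjusted p = 0.0379, limma). None of the 5 was called lower there. Of 8 genes of the Pdcd4 list, none but Pdcd4 passed for 12 h against 0 h. Rps6kb2 of that list, an S6 kinase, was higher in Ser585Gly than in wild type at 12 h (0.75 ± 0.11, adjusted p = 0.0121) and at 0 h (0.71 ± 0.11, adjusted p = 0.0124, limma).

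Among 19 genes of the kinases and partners upstream of FoxO, 1 fell and 3 rose in Ser585Gly, and 1 fell and 1 rose in wild type. Pik3ip1, an inhibitor of PI3K, fell, at −1.83 ± 0.10 in Ser585Gly and −2.21 ± 0.10 in wild type. It was higher in Ser585Gly than in wild type at 0 h (0.51 ± 0.10, adjusted p = 0.031) and at 12 h (0.89 ± 0.10, adjusted p = 0.00386, limma). No other gene of that list passed between the populations. Skp2, the ubiquitin ligase subunit that targets Cdkn1b and FoxO1, rose by 0.97 ± 0.12 in Ser585Gly and 0.49 ± 0.12 in wild type. None of 10 measured genes of the deubiquitinase, acetylation and activating factors passed in either population. Of 7 CCR4-NOT subunits, 1 rose and 1 fell in Ser585Gly and 1 rose in wild type. Of 9 genes of the insulin receptor substrate list only Pik3r1 passed against 0 h, at −0.54 ± 0.09 in Ser585Gly, with −0.31 ± 0.09 in wild type, which did not pass. Pik3r1 was higher in Ser585Gly than in wild type at 0 h, by 0.61 ± 0.09 (adjusted p = 0.0129, limma), and none of the 9 was called lower there. Of 19 proliferation genes, 9 rose and 0 fell in Ser585Gly, and 4 rose and 1 fell in wild type. The share of all probes called higher was not counted, so these rises cannot be set against it. Cdc6, a replication licensing factor, rose by 1.38 ± 0.13 in Ser585Gly and 0.75 ± 0.13 in wild type. The gene that fell in wild type was the proliferation marker Mki67, at −0.88 ± 0.21 (adjusted p = 0.0378, limma). It was the largest passing change of that list in wild type. Between the populations at 0 h, 1 gene of the list was higher in Ser585Gly and 1 lower.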

How the data were processed

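Per the file headers, the deposited scanner files give foreground and background intensity per dye, and the deposited value table holds log2 ratios of Cy5 over Cy3. The submitters' processing notes name limma without a version; its settings were not given in the sources used here. Rows of the deposited table were placed on spots by their 8 ratios, which gave 21779 gene probes. The placed spot was the nearest for 90.3% of these, and the coded spot was the nearest for 94.1% of 1012 coded controls. Names were moved from the deposited 48-pin print order to a 24-pin order. Empty wells had a median brightness percentile of 1.14 in that order and 51.3 in the deposited one. Placed probes with 1 symbol numbered 16644, with several 137 and with none 4998.

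Intensities were background-corrected by normexp (offset 50) and normalised by loess (span 0.3) with control spots at weight 0. The 8 arrays entered 1 model with mutation, time, interaction and dye terms (limma 3.58.1, R 4.3.3; degrees of freedom were 4 residual and 4.36 prior). Two-sided tests were made with Benjamini-Hochberg adjustment over 21779 probes and a threshold of 0.05. Precision is limited by how few arrays there are. The script was tested on simulated data. Channel intensities were also normalised between arrays (Aquantile). Every one of the 10 genes was named in each comparison, on its brightest probe. Of each gene list at most the 4 largest passing changes were named, and for each gene passing at 12 h the 1 nearest gene. The genes and lists were chosen with earlier results of these data known. The 22 alternatives covered background, normalisation, model, filter, probe choice and each array left out.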

Additional observations from a re-analysis of the deposited data

How the results depend on the processing

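Pdcd4 and Btg2 were called lower at 12 h in Ser585Gly and in wild type under all 22 alternatives. No call changed sign; of values that passed in neither setting, some crossed 0, Klf4 among them. The number of the 10 genes lower at 12 h in wild type, 3 in the joint fit, was 7 with the edge as a random block, 6 with the deposited value table or with the dimmest 0.25 of probes left out, 5 with plain background subtraction, print-tip loess or an intensity trend, and 2 to 5 with 1 array left out. In Ser585Gly it was 5, or 6 with the edge as a random block, 4 with dye swaps averaged or direct arrays only, and 2 to 5 with 1 array left out, the 2 being without its own replicate 1. The block model estimated the correlation of dye-swap arrays within an edge at −0.326. A shared effect of the edge would not give a negative value, which limits the counts from that model. The Ccng2 call at 0 h was lost, leaving 0 genes, with dye swaps averaged (adjusted p = 0.0611) or direct arrays only (0.0723), and held under 16 of 22 alternatives; leaving out 1 array gave 0 to 1. The Txnip call at 12 h was lost, leaving 0, with dye swaps averaged (0.0869), a normexp offset of 0 (0.0521), median centring (0.11) or direct arrays only (0.0723), and held under 12 of 22; leaving out 1 array gave 0 to 1. The interaction called none of the 10 under any alternative. Irs2 was not tested where those dimmest probes were left out. The cause of these changes was not tested. Signal over background was lower in Cy3 than in Cy5, and 2 arrays per comparison limit every value.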
